A study of Mus musculus with 9 samples.

Results

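The measurements below follow 10 genes of Wnt signalling across 9 RNA-seq libraries of a mouse breast cancer cell line and its Malat1 knockouts. The 10 genes were taken by symbol from the 19072 gene identifiers that at least 1 library listed, and all 10 were listed somewhere. They are the secreted antagonist Sfrp1, the R-spondin receptor Lgr6, the Wnt receptor Fzd7, the ubiquitin ligases Znrf3 and Rnf43, the co-receptor Lrp6, the negative feedback gene Axin2, the effector Ctnnb1, and the DNA-binding partners Tcf7 and Tcf7l2. The cells were 4T1-TGL, a derivative of the 4T1 mammary carcinoma line of BALB/c mice (BALBC in the labels), and every library came from cells in DMEM/F12 medium. The groups were KO2 (genotype Malat1 KO), KO1 (genotype Malat1 KO) and Ctrl (genotype WT), with 3 libraries each, and no other treatment, time or allele is labelled. Malat1 is a long noncoding RNA of the nucleus. The labels give neither how Malat1 was disrupted nor whether each knockout line was 1 clone, so line and knockout cannot be told apart within a line. The labels do not state that the 3 libraries of a group were grown separately; a p-value here sets a difference against the spread of these libraries alone, and that spread may be technical.

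In Wnt signalling, a secreted Wnt protein binds a Frizzled receptor together with Lrp6 or Lrp5, which halts the breakdown of beta-catenin, the product of Ctnnb1, and lets it act in the nucleus with factors of the TCF/LEF family. Znrf3 and Rnf43 remove Frizzled receptors from the cell surface, R-spondins bound to Lgr receptors hold these ligases back, and Sfrp1 binds Wnt proteins outside the cell. In the mammary gland the pathway is known for its part in development and stem cell activity, and in mice for causing mammary tumours when overactive.

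Total expected counts ran from 30655924 to 35406395 per library. Malat1 stood at 119, 160 and 98.1 CPM (counts scaled to the library's total) in KO2 and at 3.88, 3.69 and 2.63 CPM in KO1, against 510, 402 and 474 CPM in Ctrl. Its mean was therefore 27.2% of Ctrl in KO2 and 0.735% of Ctrl in KO1. The epithelial keratins Krt8 and Krt18 were high in all groups (mean Krt8 575 FPKM in KO2, 373 FPKM in KO1 and 215 FPKM in Ctrl; FPKM is fragments scaled to gene length and library total), but the defining epithelial genes Epcam and Cdh1 were at or near 0, with no group mean above 0.223 FPKM. All 8 epithelial markers were listed somewhere, and their summed FPKM was 1340 to 1450 in KO2, 832 to 974 in KO1 and 489 to 503 in Ctrl, most of it Krt8 and Krt18. The keratin Krt7 went the other way in KO2 only, with means of 0.477 FPKM in KO2 and 34.1 FPKM in KO1, against 31.6 in Ctrl. Epcam averaged 0.0167 FPKM in KO2 and 0.0267 FPKM in KO1, against 0.223 FPKM in Ctrl. The summed FPKM of 4 fibroblast markers was 20.3 to 21.1 in KO2, 42.0 to 45.3 in KO1 and 50.9 to 52.6 in Ctrl, most of it Pdgfra. Leukocyte markers summed to 35.9 to 39.4 FPKM in KO2, 6.73 to 21.8 FPKM in KO1 and 7.65 to 31.3 FPKM in Ctrl, nearly all of it S100a8, with Ptprc at 0.01 FPKM or less, and endothelial and adipocyte markers summed to at most 0.76 and 0.08 FPKM in any library. The part of these marker differences in the results below was not tested, and in bulk RNA fewer cells of a type and less RNA per cell cannot be told apart.

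The members did not move as a block, and the knockout lines differed from each other. In KO2, Lgr6, Fzd7, Lrp6, Ctnnb1 and Tcf7l2 rose, and Sfrp1 and Tcf7 fell. In KO1, Sfrp1, Lgr6 and Ctnnb1 rose and Tcf7 fell. Of the 10 genes, 8 had enough counts to be tested, and Rnf43 and Axin2 did not. Calls rest on edgeR's quasi-likelihood test with Benjamini-Hochberg adjustment over 13682 genes and a threshold of 0.05. In KO2 against Ctrl 7 of the 8 tested members were called, 5 higher and 2 lower, where 54.1% of all tested genes were called (24.6% higher and 29.5% lower). In KO1 against Ctrl 4 of the 8 were called, 3 higher and 1 lower, where 30.5% of all genes were called (15.6% higher and 14.9% lower). In KO2 against KO1 6 of the 8 were called, 4 higher and 2 lower, where 55.0% of all genes were called (25.5% higher and 29.5% lower). The groups did not overlap in CPM for 8 members in KO2 against Ctrl, where 65.7% of genes did not overlap, for 5 in KO1 against Ctrl (42.7%) and for 7 in KO2 against KO1 (62.2%). The median log2 fold change of the tested members was 0.28 in KO2 against Ctrl and 0.07 in KO1 against Ctrl, beside -0.03 and 0.0 over all tested genes. Both comparisons use the same 3 Ctrl libraries, so their calls are not independent.

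**Figure D1:**
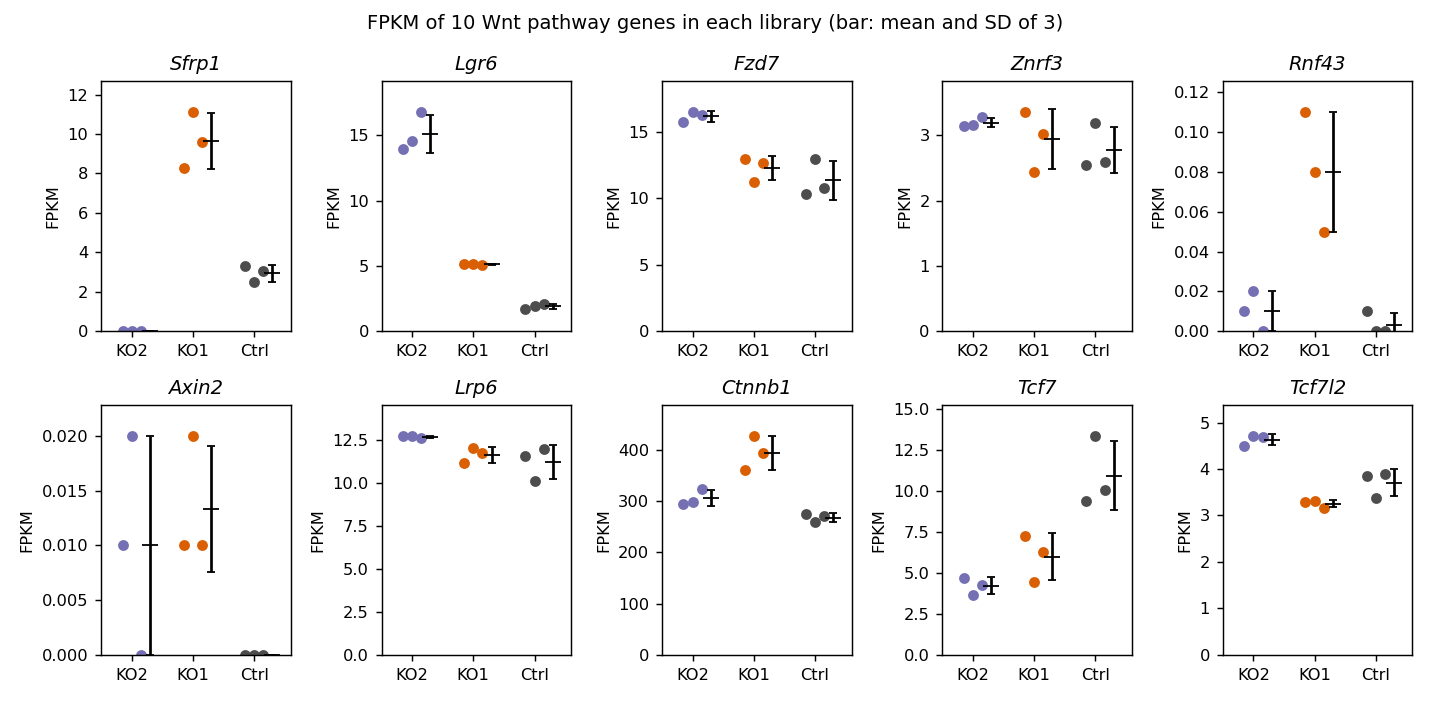
FPKM of each of the 10 genes in every library of KO2, KO1 and Ctrl, as points, with the mean and SD of 3 libraries beside them; each panel has its own axis from 0. Sfrp1 sits at 0 in KO2 and at 8.28 to 11.1 in KO1, against 2.48 to 3.31 in Ctrl, and Lgr6 reaches 13.96 to 16.77 in KO2.

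Levels per length differed widely among the members. Ctnnb1 stood far above the rest, at 305 ± 15.6 FPKM in KO2, 393 ± 32.9 FPKM in KO1 and 267 ± 8.43 FPKM in Ctrl (SD, n = 3 each). In Ctrl, Fzd7, Lrp6 and Tcf7 followed at 11.3, 11.2 and 10.9 FPKM, neighbours whose libraries overlapped, then Tcf7l2, Sfrp1, Znrf3 and Lgr6 between 3.71 and 1.90 FPKM. In KO2 the order below Ctnnb1 was Fzd7 at 16.2 and Lgr6 at 15.1 FPKM, whose libraries overlapped, then Lrp6 at 12.7, Tcf7l2 at 4.63, Tcf7 at 4.21 and Znrf3 at 3.19 FPKM. In KO1 Fzd7 and Lrp6, at 12.3 and 11.6 FPKM, overlapped, and Sfrp1 came next at 9.66 FPKM, above Tcf7, Lgr6, Tcf7l2 and Znrf3. Lgr6, the lowest of the tested genes in Ctrl, was thus the third in KO2.

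**Figure D2:**
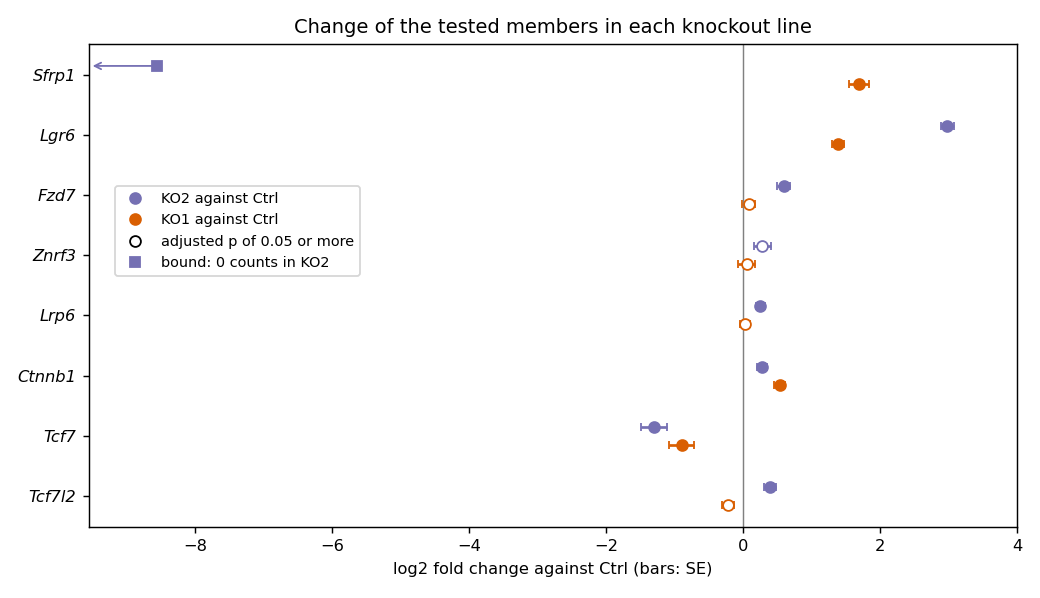
Log2 fold change against Ctrl of the 8 tested genes in KO2 and in KO1, with bars for the SE; open points have an adjusted p of 0.05 or more, and the square with an arrow is the bound for Sfrp1 in KO2. Lgr6 and Ctnnb1 lie right of 0 in both lines and Tcf7 left of 0 in both, and Sfrp1 lies on opposite sides.

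Sfrp1 encodes a secreted frizzled-related protein that binds Wnt proteins and blocks their signal (gene ID 20377, chr8:23411383-23449632, GRCm38.p6). It had 0 counts in all 3 KO2 libraries and 1214, 1517 and 1315 counts in KO1, against 475, 382 and 425 counts in Ctrl. The 3 groups did not overlap, and KO2 and KO1 lay on opposite sides of Ctrl. A single count in KO2 would have come to 0.00731 to 0.00755 FPKM, which is within what the files list. Taking 3 counts over the group as the floor, Sfrp1 was at least 376-fold lower in KO2 than in Ctrl (edgeR adjusted p = 4.27e-08) and at least 1210-fold lower in KO2 than in KO1 (edgeR adjusted p = 7.52e-09). In KO1 it rose 3.22-fold, by 1.69 ± 0.143 on the log2 scale (SE; edgeR adjusted p = 3.1e-05). Genes whose log2 CPM closely followed Sfrp1 over the 9 libraries included P3h2 (Pearson r 0.9988) and Nxf3 (0.9985), in a description that rests on 3 groups. Mean P3h2 was 1.21 CPM in KO2 and 175 CPM in KO1, against 68.8 CPM in Ctrl. Of 15 tested genes within 1000 kb of Sfrp1 on either side, 2 rose and 10 fell in KO2, while 4 rose and none fell in KO1. Over all tested genes 24.6% rose and 29.5% fell in KO2, and 15.6% rose and 14.9% fell in KO1.

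Lgr6 encodes a receptor for R-spondins, which raise Wnt signalling (gene ID 329252, chr1:134983300-135105374). It measured 13.96, 14.58 and 16.77 FPKM in KO2 and 5.12, 5.18 and 5.1 FPKM in KO1, against 1.68, 1.91 and 2.1 FPKM in Ctrl. The 3 groups did not overlap. Lgr6 rose 7.90-fold in KO2 (log2 2.98 ± 0.0936 SE, edgeR adjusted p = 7.29e-10) and 2.60-fold in KO1 (log2 1.38 ± 0.0915 SE, edgeR adjusted p = 1.08e-06). KO2 exceeded KO1 by 1.61 ± 0.0874 (SE) on the log2 scale (edgeR adjusted p = 6.42e-08). The deposited transcript length of Lgr6, an average over its isoforms in a library, was 5308, 5511 and 5198 bases in KO2 and 5626, 5597 and 5435 bases in KO1, against 5872, 5564 and 5612 bases in Ctrl. The genes most like it over the 9 libraries were Nptx1 (Pearson r 0.9981), Itgb2 (0.9962) and Ltbp3 (0.9955), with Nptx1 at a mean of 269 CPM in KO2 and 71.8 CPM in KO1, against 20.4 CPM in Ctrl. Among 24 tested genes within 1000 kb of Lgr6, 5 rose and 10 fell in KO2, and 4 rose and 1 fell in KO1.

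Fzd7 encodes a Frizzled receptor for Wnt proteins (gene ID 14369, chr1:59482147-59486955), and Lrp6 encodes the co-receptor that Frizzled proteins need for beta-catenin signalling (gene ID 16974, chr6:134446476-134566913). Fzd7 measured 15.73, 16.47 and 16.29 FPKM in KO2 and 12.92, 11.24 and 12.66 FPKM in KO1, against 10.3, 12.99 and 10.75 FPKM in Ctrl. KO2 lay above the other groups, and KO1 and Ctrl overlapped. Fzd7 rose 1.50-fold in KO2 (log2 0.59 ± 0.0945 SE, edgeR adjusted p = 0.000355). In KO1 its log2 difference was 0.08, with a 95% interval from -0.15 to 0.31 (edgeR adjusted p = 0.546). Lrp6 measured 12.74, 12.72 and 12.61 FPKM in KO2 and 11.14, 12.04 and 11.73 FPKM in KO1, against 11.58, 10.12 and 12.0 FPKM in Ctrl. Its lowest KO2 library was above the highest Ctrl library by a small margin. Lrp6 rose by 0.25 ± 0.071 (SE) in KO2 (edgeR adjusted p = 0.0109) and differed by 0.02 in KO1, with a 95% interval from -0.15 to 0.20 (edgeR adjusted p = 0.851). The KO2 call of Lrp6 was lost without TMM scaling (log2 0.18, adjusted p = 0.0603) and with limma on log2(FPKM + 1) (log2 0.17, adjusted p = 0.0773). KO2 exceeded KO1 by 0.23 ± 0.071 (SE; edgeR adjusted p = 0.0167), a call likewise lost without TMM scaling (0.13, adjusted p = 0.164) and with limma at either pseudocount (0.12, adjusted p = 0.197).

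Znrf3 and Rnf43 encode membrane ubiquitin ligases that clear Frizzled receptors from the surface (gene ID 407821, chr11:5276329-5444847, and gene ID 207742, chr11:87663087-87735539). Znrf3 measured 3.14, 3.16 and 3.28 FPKM in KO2 and 3.35, 2.44 and 3.02 FPKM in KO1, against 2.54, 3.18 and 2.59 FPKM in Ctrl. Its FPKM values overlapped between all groups, while its CPM values did not overlap between KO2 and Ctrl. Nor did they overlap between KO2 and KO1, by a small margin (lowest KO2 library 23.8 CPM, highest KO1 library 23.7 CPM). The log2 difference was 0.28 in KO2, with a 95% interval from -0.02 to 0.58 (edgeR adjusted p = 0.0759), and 0.05 in KO1, from -0.25 to 0.36 (edgeR adjusted p = 0.786). It was called in KO2 when Ctrl replicate 2 (log2 0.40, edgeR adjusted p = 0.0209), KO1 replicate 1 (0.28, 0.0483) or KO1 replicate 2 (0.30, 0.0216) was left out. A fit of the KO2 and Ctrl libraries alone also called it in KO2 (log2 0.30, edgeR adjusted p = 0.0252). In KO2 against KO1 it was called without KO1 replicate 1 (0.33, edgeR adjusted p = 0.0444). Rnf43 had 2, 3 and 0 counts in KO2 and 16, 11 and 7 counts in KO1, against 1, 0 and 0 counts in Ctrl. KO1 lay above both other groups, at totals of 5 counts in KO2 and 34 in KO1 against 1 in Ctrl. The KO1 total was 34.7 times that of Ctrl at equal depth, with an exact 95% counting interval from 5.82 to 1410, and the KO2 total was 5.69 times that of Ctrl, from 0.636 to 269. Without the filter on low counts Rnf43 was called in KO1 against Ctrl (log2 4.64, edgeR adjusted p = 0.00315) and in KO2 against KO1 (log2 -2.49, adjusted p = 0.0197) but not in KO2 against Ctrl (adjusted p = 0.212). Znrf3 held 99.7 ± 0.314% of the summed FPKM of the pair in KO2 and 97.3 ± 0.894% in KO1, against 99.9 ± 0.226% in Ctrl (SD, n = 3 each).

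Ctnnb1 encodes beta-catenin (gene ID 12387, chr9:120933400-120960507). It measured 293.51, 298.57 and 322.73 FPKM in KO2 and 360.54, 426.39 and 393.46 FPKM in KO1, against 274.47, 258.1 and 269.78 FPKM in Ctrl. The 3 groups did not overlap, with KO1 the highest. Ctnnb1 rose 1.21-fold in KO2 (log2 0.27 ± 0.0764 SE, edgeR adjusted p = 0.0114) and 1.44-fold in KO1 (log2 0.53 ± 0.0765 SE, edgeR adjusted p = 0.000388). KO2 was below KO1 by a log2 difference of -0.26 ± 0.0763 (SE; edgeR adjusted p = 0.0144). The KO2 call was lost without KO2 replicate 3 (log2 0.22, edgeR adjusted p = 0.0536) and with limma on log2(FPKM + 1) (0.19, 0.0532). The difference between the lines was lost without KO1 replicate 2 (-0.17, edgeR adjusted p = 0.075), KO2 replicate 1 (-0.23, 0.0647) or KO2 replicate 2 (-0.24, 0.0527). RNA level says nothing here of beta-catenin protein, which the pathway controls by breakdown.

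Axin2 encodes a scaffold of the beta-catenin destruction complex and is itself a widely used target of the pathway (gene ID 12006, chr11:108917828-108950783). It had 2, 2 and 0 counts in KO2 and 1, 3 and 1 counts in KO1, against 0 in each Ctrl library. The totals of 4, 5 and 0 counts have exact 95% Poisson intervals of 1.09 to 10.24 in KO2, 1.62 to 11.67 in KO1 and 0 to 3.69 in Ctrl, which cover counting error only and overlap. Without the low-count filter edgeR gave adjusted p = 0.118 in KO2 and 0.142 in KO1, so no difference was detectable at this depth. Of the 12 other target genes in the fixed list, 4 were tested, and Sp5, Ascl2 and Prox1 were listed in no library.

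Tcf7 and Tcf7l2 encode DNA-binding factors of the TCF/LEF family (gene ID 21414, chr11:52246527-52283383, and gene ID 21416, chr19:55741797-55933659). Tcf7 measured 4.72, 3.67 and 4.25 FPKM in KO2 and 7.27, 4.44 and 6.28 FPKM in KO1, against 9.38, 13.36 and 10.08 FPKM in Ctrl. Every knockout library lay below every Ctrl library, and KO2 and KO1 overlapped. Tcf7 fell in KO2 by 1.31 on the log2 scale (SE 0.189, edgeR adjusted p = 0.000184) and in KO1 by 0.90 (SE 0.185, edgeR adjusted p = 0.00389). KO2 and KO1 differed by -0.42, with a 95% interval from -0.88 to 0.05 (edgeR adjusted p = 0.0854), and this passed without TMM scaling (-0.52, adjusted p = 0.0368) and without KO1 replicate 2 (-0.56, adjusted p = 0.0106). Tcf7l2 measured 4.5, 4.71 and 4.69 FPKM in KO2 and 3.28, 3.31 and 3.17 FPKM in KO1, against 3.85, 3.37 and 3.9 FPKM in Ctrl. KO2 lay above and KO1 below all Ctrl libraries. It rose in KO2 by 0.39 ± 0.0864 (SE; edgeR adjusted p = 0.00264), and KO2 exceeded KO1 by 0.61 ± 0.087 (SE; edgeR adjusted p = 0.00014). In KO1 the difference of -0.22 was not called (edgeR adjusted p = 0.0845) except without Ctrl replicate 2 (-0.28, adjusted p = 0.0393). Of 12 tested genes within 1000 kb of Tcf7l2, none rose and 9 fell in KO2. For the other members the tested neighbours that rose and fell in KO2 were 7 and 2 of 20 for Tcf7, 20 and 5 of 32 for Znrf3, 12 and 2 of 24 for Rnf43, 4 and 6 of 21 for Fzd7, 4 and 6 of 15 for Lrp6, 4 and 5 of 18 for Ctnnb1 and 4 and 2 of 12 for Axin2. In KO1 they were 1 and 4 for Tcf7, 3 and 8 for Znrf3, 6 and 0 for Rnf43, 2 and 0 for Fzd7, 4 and 2 for Lrp6, 3 and 0 for Ctnnb1, 7 and 0 for Axin2, and 1 and 2 for Tcf7l2. Beside these counts, 24.6% of all tested genes rose and 29.5% fell in KO2, and 15.6% rose and 14.9% fell in KO1. The genes most like Tcf7 over the 9 libraries were Klf5 (Pearson r 0.9902), Pde12 (0.9886) and Ikzf5 (0.9872), and those most like Tcf7l2 were Ttf2 (0.9894), Esyt2 (0.9876) and Inf2 (0.9862).

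The make-up of the TCF/LEF family differed between the groups. Tcf7 held 30.8, 24.9 and 27.0% of the family's summed FPKM in KO2 and 44.8, 32.1 and 40.6% in KO1, against 47.3, 55.0 and 48.1% in Ctrl. Tcf7l2 held 30.4 ± 1.37% in KO2 and 21.5 ± 2.06% in KO1, against 17.3 ± 2.99% in Ctrl (SD, n = 3 each). The summed FPKM of the family was 15.3 ± 0.492 in KO2 and 15.2 ± 1.22 in KO1, against 21.7 ± 2.31 in Ctrl. In KO1 the Tcf7l2 share of this smaller sum was above Ctrl, while its own mean FPKM was below Ctrl (3.25 against 3.71). Tcf7l1, a family member better known as a repressor, showed log2 differences of -0.11 in KO2 and -0.19 in KO1 that were not called (edgeR adjusted p = 0.366 and 0.154). Lef1, also of the family and described here after its values were seen, was 1.01 ± 0.0777 FPKM in KO2 and 0.433 ± 0.155 FPKM in KO1, against 0.90 ± 0.252 FPKM in Ctrl. It was higher in KO2 than in KO1 by 1.40 ± 0.299 (SE, log2; edgeR adjusted p = 0.00223), differed by 0.32 in KO2 against Ctrl (adjusted p = 0.356) and fell by 1.08 in KO1 (edgeR adjusted p = 0.0185). The fall in KO1 was not called without Ctrl replicate 2 (-0.72, adjusted p = 0.0746) or with a replicate block (-1.05, adjusted p = 0.0542). Among Frizzled receptors, Fzd7 held 31.5 ± 1.36% of the summed FPKM in KO2 and 25.0 ± 0.43% in KO1, against 24.9 ± 1.06% in Ctrl. The family's sum was 51.3 ± 1.15 FPKM in KO2 and 49.0 ± 2.95 FPKM in KO1, against 45.4 ± 3.82 FPKM in Ctrl. These shares are descriptions and carry no test.

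**Figure D3:**
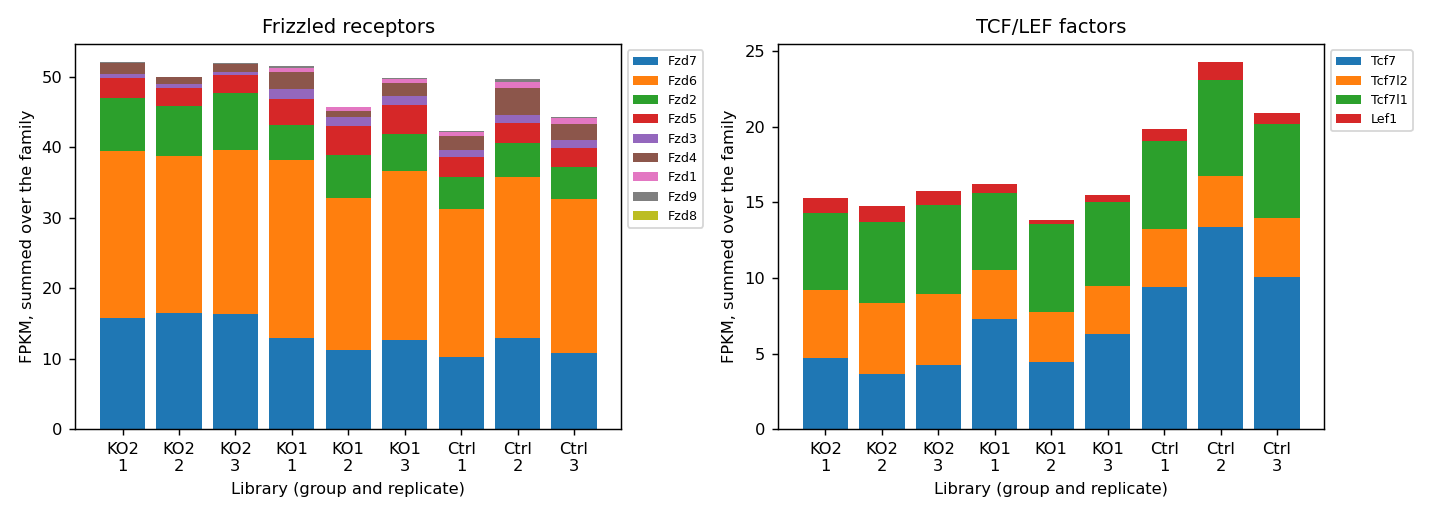
Summed FPKM of the Frizzled receptors and of the TCF/LEF factors in each library of KO2, KO1 and Ctrl, stacked by gene. The Tcf7 segment of the KO2 and KO1 libraries is smaller than in every Ctrl library, and the Fzd7 segment is largest in KO2.

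Some members departed from their group means in the same libraries. Over all tested genes the departures of Ctrl replicate 2 correlated at 0.34 with those of KO1 replicate 1, the highest of all pairs. With KO1 replicate 2 the correlation was -0.34, so shared departures were not particular to the members. Tcf7, Fzd7 and Znrf3 were all highest in KO1 replicate 1 within KO1 and in Ctrl replicate 2 within Ctrl, and the receptor Fzd4 and the target Myc shared that order. Tcf7 CPM was 13.5, 10.7 and 12.3 in KO2 and 19.7, 12.1 and 16.9 in KO1, against 26.0, 37.4 and 27.4 in Ctrl. Myc CPM was 156, 133 and 143 in KO2 and 370, 224 and 340 in KO1, against 330, 441 and 353 in Ctrl. Sfrp1, Lrp6, Ctnnb1 and Tcf7l2 were lowest of Ctrl in the same replicate 2. Without Ctrl replicate 2 the log2 change of Tcf7 was -1.13 in KO2 (edgeR adjusted p = 0.000491) and -0.72 in KO1 (edgeR adjusted p = 0.0123). Whether a shared technical step lies behind these departures was not tested.

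**Figure D4:**
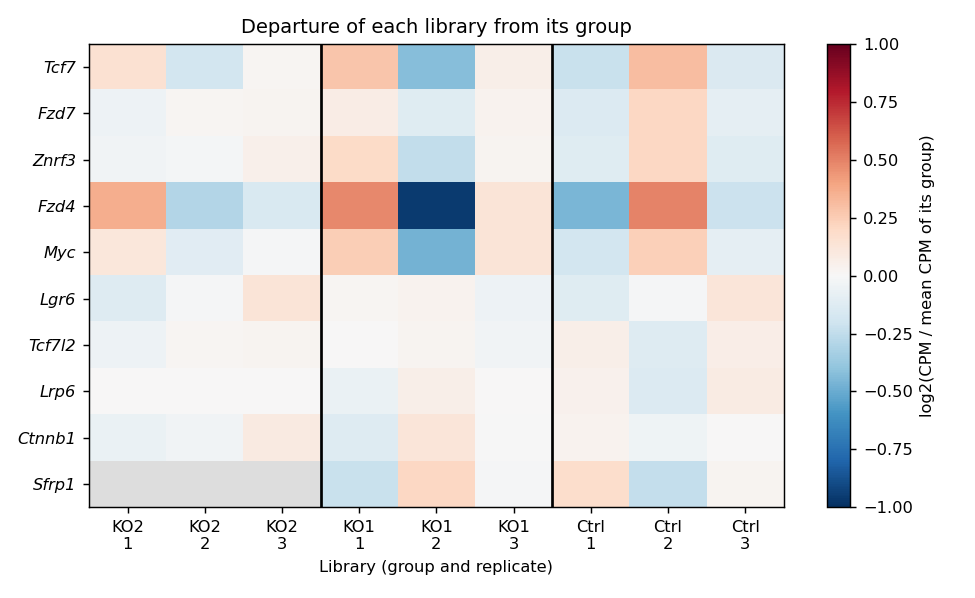
Log2 ratio of each library's CPM to the mean of its group, for 8 members with Fzd4 and Myc, in KO2, KO1 and Ctrl libraries; grey marks the 0 counts of Sfrp1 in KO2. Ctrl replicate 2 and KO1 replicate 1 are red for Tcf7, Fzd7, Znrf3, Fzd4 and Myc.

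Promoter windows of 300 bases, 250 before and 50 after a RefSeq transcript start (GRCm38.p6), were held for 7 of the 10 genes in 11 windows. Lgr6, Fzd7 and Tcf7l2, which rose in KO2, are shown with Axin2, the pathway's usual readout, so that their letters can be set beside the levels above. Capitals mark CAAAG or its reverse complement CTTTG, the core bound by TCF/LEF factors, searched on both strands.
Lgr6, chr1:135105227-135105526, minus strand: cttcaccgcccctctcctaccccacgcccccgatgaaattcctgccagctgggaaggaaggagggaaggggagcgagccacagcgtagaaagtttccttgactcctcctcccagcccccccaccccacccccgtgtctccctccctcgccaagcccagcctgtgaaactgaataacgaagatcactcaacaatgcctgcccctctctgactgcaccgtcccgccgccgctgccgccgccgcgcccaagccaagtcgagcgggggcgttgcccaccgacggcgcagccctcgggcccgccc
Fzd7, chr1:59481897-59482196, plus strand: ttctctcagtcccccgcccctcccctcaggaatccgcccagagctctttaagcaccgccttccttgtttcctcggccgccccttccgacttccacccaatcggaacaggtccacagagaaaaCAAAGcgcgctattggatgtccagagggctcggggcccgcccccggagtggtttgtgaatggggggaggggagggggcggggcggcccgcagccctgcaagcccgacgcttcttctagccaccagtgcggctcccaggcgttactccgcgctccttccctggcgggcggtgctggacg
Tcf7l2, chr19:55741560-55741859, plus strand: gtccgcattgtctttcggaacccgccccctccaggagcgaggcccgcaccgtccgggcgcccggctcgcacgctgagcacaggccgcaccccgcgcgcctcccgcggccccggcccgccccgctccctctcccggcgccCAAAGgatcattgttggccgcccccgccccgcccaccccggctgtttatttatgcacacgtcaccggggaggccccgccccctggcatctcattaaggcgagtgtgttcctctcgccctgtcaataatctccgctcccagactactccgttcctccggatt
Axin2, chr11:108920099-108920398, plus strand: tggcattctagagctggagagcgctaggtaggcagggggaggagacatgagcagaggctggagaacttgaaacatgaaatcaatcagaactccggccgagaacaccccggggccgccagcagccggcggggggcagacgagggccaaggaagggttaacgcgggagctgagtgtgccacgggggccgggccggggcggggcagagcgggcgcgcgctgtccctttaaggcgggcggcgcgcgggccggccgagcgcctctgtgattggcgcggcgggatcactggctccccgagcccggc
The Fzd7 window holds the core 1 time, from base 123, and the Tcf7l2 window 1 time, from base 140. The Lgr6 and Axin2 windows hold none of these letters. Ctnnb1 also rose in KO2, and its windows, not shown, hold no core either. In all, 3 of 11 member windows (27.3%) held the core, as did 17718 of 32851 promoter windows of the same length (53.9%). The remaining one was another Tcf7l2 window (chr19:55895071-55895370, not shown), with the core from base 237. Base composition was not matched between the member windows and all windows, and the shares were not tested. The longer CTTTGAT or its reverse complement, which overlaps the core, was in 0 of the 11 and in 3.73% of all windows. The ratio of observed to expected CG pairs was 0.76 for Lgr6, 0.73 for Fzd7, 1.01 for Tcf7l2 and 0.89 for Axin2, beside a median of 0.38 over all windows.

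Other genes of the pathway changed in both directions, as did tested genes at large. Of all tested genes 24.6% rose and 29.5% fell in KO2, and 15.6% rose and 14.9% fell in KO1. The list counts here and below stand beside those shares, and no list was tested as a set. In KO2, 1 of 7 tested other Frizzled genes rose and 4 fell, with a median log2 of -1.01, and in KO1 2 rose and none fell (median 0.08). The riser in KO2 was Fzd2, named after its values were seen (7.59 ± 0.435 FPKM in KO2 and 5.43 ± 0.546 FPKM in KO1, against 4.63 ± 0.17 FPKM in Ctrl). Fzd3 was 0.503 FPKM in KO2 and 1.34 FPKM in KO1, against 1.07 FPKM in Ctrl, and fell in KO2 (log2 -1.01, edgeR adjusted p = 5.9e-06). Fzd5 differed by -0.02 in KO2 (edgeR adjusted p = 0.831) and rose in KO1 (log2 0.47, edgeR adjusted p = 0.0015), and KO2 was lower than KO1 (-0.50, adjusted p = 0.000514). The count of called Frizzled genes was 3 in KO2 without Ctrl replicate 2 or without KO2 replicate 2. In KO1 Fzd3 (log2 0.29, adjusted p = 0.0323) was lost, leaving 1, when replicate 1 of any group was left out, or replicate 3 of Ctrl or of KO1 (adjusted p = 0.0506 to 0.106). The Fzd3 call was also lost with no filter on low counts (adjusted p = 0.0581) and with limma on log2(FPKM + 0.1) (0.0735). So it was with the 2 compared groups alone (0.0629) and with a replicate block (0.0746). Of 5 tested other receptors, 1 rose and 2 fell in KO2 (median -0.15), and 2 rose and 1 fell in KO1 (median 0.24), a count of 3 that was 1 without Ctrl replicate 3 or KO1 replicate 3. The riser in KO2 was Lrp5 (log2 0.32, edgeR adjusted p = 0.0474). Its call was lost without TMM scaling (adjusted p = 0.115) and with limma (0.14 and 0.135). It was also lost without KO1 replicate 3 or any 1 Ctrl or KO2 library (edgeR adjusted p = 0.0619 to 0.171). Lgr4, like Lgr6 a receptor for R-spondins, was 2.00 ± 0.116 FPKM in KO2 and 2.58 ± 0.244 FPKM in KO1, against 3.21 ± 0.216 FPKM in Ctrl (SD, n = 3 each). It fell in KO2 (-0.60, edgeR adjusted p = 0.000531) and in KO1 (-0.34, edgeR adjusted p = 0.0248), and the KO1 call was lost without Ctrl replicate 1 (-0.29, adjusted p = 0.0881), Ctrl replicate 3 (-0.36, 0.0576) or KO1 replicate 3 (-0.27, 0.109). Ror1, a receptor for Wnt signals outside the beta-catenin branch, was 0.01 FPKM in KO2 and 3.59 FPKM in KO1, against 0.17 FPKM in Ctrl, and it fell in KO2 (-4.28, edgeR adjusted p = 2.66e-05) and rose in KO1 (4.40, edgeR adjusted p = 1.28e-07).

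Of 13 tested Wnt ligands and secretion factors, 2 rose and 5 fell in KO2 (median log2 -0.25) and 5 rose and 4 fell in KO1 (median 0.26). Wnt3, Wnt6 and Wnt9b were among the fallers in both lines. They had 3, 2 and 0 counts in KO2 and 2, 8 and 0 in KO1, against 129, 129 and 131 in Ctrl. All of them passed the filter on low counts through Ctrl alone, so they could only fall. Wnt10a was 0.167 FPKM in KO2 and 2.92 FPKM in KO1, against 5.02 FPKM in Ctrl, and fell in both lines (-4.82 and -0.81, edgeR adjusted p = 6.04e-08 and 0.00644). Wnt10b, also a Wnt ligand, rose in KO1 (1.05, edgeR adjusted p = 0.00012), and in KO2 the difference was -0.14 (adjusted p = 0.374; -0.31 and 0.0392 without KO2 replicate 2). Wnt7b rose in both lines (0.90 in KO2 and 0.56 in KO1, edgeR adjusted p = 5.67e-05 and 0.00307). Of 4 tested other antagonists, 1 rose and 2 fell in KO2 (median -0.17), and none rose and 4 fell in KO1 (median -1.01). Sost, a faller in both lines, had 0 counts in KO2 and in KO1, against 64 in Ctrl (0.317 FPKM). It passed the filter on low counts through Ctrl alone, so it could only fall. The KO2 count of 3 was 1 without Ctrl replicate 2 or KO2 replicate 2. Notum, an enzyme that inactivates Wnt proteins, was 3.10 FPKM in KO2 and 1.52 FPKM in KO1, against 3.47 FPKM in Ctrl, and fell in KO1 (-1.21, edgeR adjusted p = 0.00105). Apcdd1, an inhibitor at the cell surface, rose in KO2 (0.50, edgeR adjusted p = 0.0183) and fell in KO1 (-0.82, edgeR adjusted p = 0.00254). Its KO2 call was lost without Ctrl replicate 2 (0.45, adjusted p = 0.0598), KO2 replicate 2 (0.48, 0.0528) or KO2 replicate 3 (0.47, 0.0588). Kremen1, a receptor for Dkk inhibitors, fell in KO2 (-0.29, edgeR adjusted p = 0.0165) and in KO1 (-0.61, edgeR adjusted p = 0.000373). Its KO2 call was lost without Ctrl replicate 2 (-0.24, adjusted p = 0.059), KO2 replicate 1 (-0.25, 0.0737) or KO2 replicate 2 (-0.26, 0.0619).

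In the Dishevelled and destruction complex list all 16 genes were tested, and 5 rose and 4 fell in KO2 (median log2 0.06), while 3 rose and 1 fell in KO1 (median 0.05, with 2 called without Ctrl replicate 2 or KO1 replicate 3). Dvl2, which passes the receptor signal on, rose in KO2 (0.91, edgeR adjusted p = 1.23e-05). Gsk3b and Gsk3a encode kinases that mark beta-catenin for breakdown. Gsk3b fell in KO2 (-0.45, edgeR adjusted p = 0.0007) and differed by 0.08 in KO1 (adjusted p = 0.463), and Gsk3a differed by -0.07 in KO2 (adjusted p = 0.425) and fell in KO1 (-0.45, edgeR adjusted p = 0.000968). Of 17 tested other nuclear factors, 6 rose and 2 fell in KO2 (median 0.14), and 3 rose and 5 fell in KO1 (median -0.05). The KO1 count of 8 was 3 without Ctrl replicate 2, 5 without Ctrl replicate 1 or KO1 replicate 3, and 4 with a replicate block. The co-repressor Tle1 fell in both lines (-0.96 in KO2 and -0.64 in KO1, edgeR adjusted p = 4.95e-05 and 0.00182). The co-repressor Tle4 came to 1 count over the 3 KO2 libraries, which is 0.134% of the Ctrl level with an exact 95% counting interval from 0.00339 to 0.749%. Tle2, of the same family, rose in KO2 (1.58, edgeR adjusted p = 2.37e-06). Of the 4 tested target genes, 2 rose and 1 fell in KO2 (median 0.07), and 1 rose and none fell in KO1 (median -0.03). Tnfrsf19 was 21.6 FPKM in KO2 and 15.4 FPKM in KO1, against 6.68 FPKM in Ctrl, and rose in both lines (1.77 and 1.17, edgeR adjusted p = 1.98e-08 and 1.66e-06). Myc was 58.7 FPKM in KO2 and 137 FPKM in KO1, against 161 FPKM in Ctrl, and fell in KO2 (-1.38, edgeR adjusted p = 0.000123), with a difference of -0.27 in KO1 (adjusted p = 0.279).

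**Figure D5:**
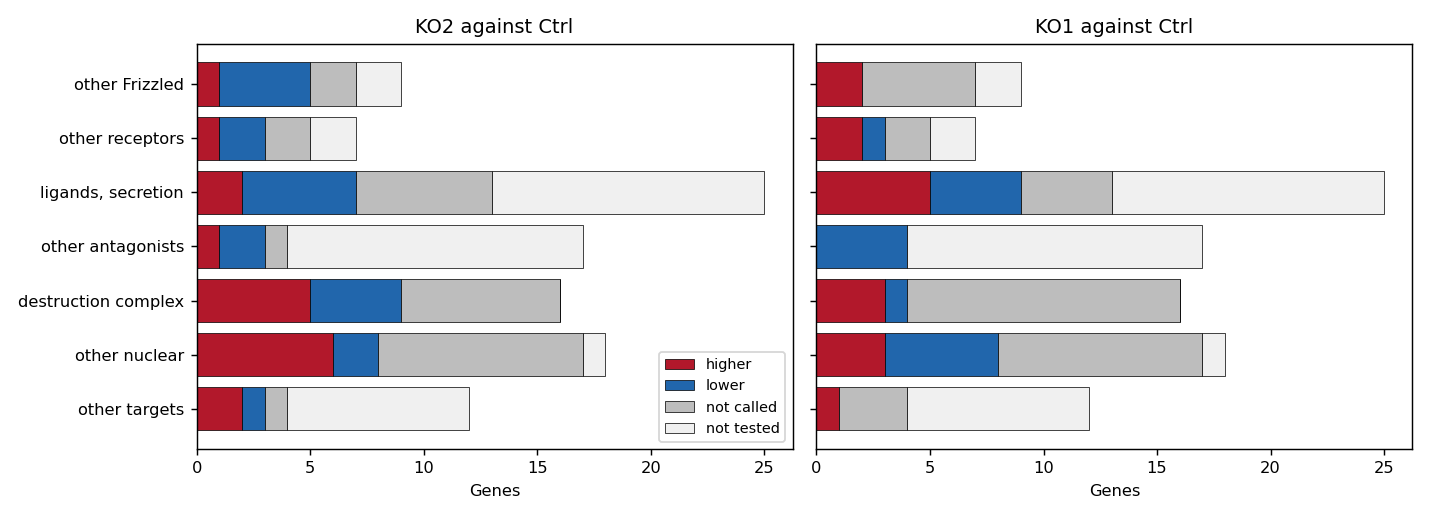
Number of genes of each other pathway list that were higher, lower, not called or not tested in KO2 against Ctrl and in KO1 against Ctrl, at an edgeR adjusted p below 0.05. The antagonists tested in KO1 are all 4 lower, Sost among them at 0 counts in KO1. The Frizzled list in KO2 has 4 lower and 1 higher.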

How the data were processed

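Per the labels, total RNA was prepared with a Maxwell kit and sequenced on the BGISEQ-500 as 100-base pairs. HISAT and RSEM, with mm10 and GRCm38, are named in the submitters' processing notes, without versions or settings. The authors deposited per library an expected count, which RSEM estimates, and an FPKM for each gene listed; the files list a gene at an FPKM of 0.01 or more after rounding, so an unlisted gene was set to 0. Expected counts were rounded to whole numbers and fitted in edgeR 4.0.16 (R 4.3.3): low counts filtered by group, TMM scaling, all 9 libraries in 1 quasi-likelihood fit with 1 coefficient per group, and Benjamini-Hochberg adjustment over 13682 genes. SE is the fold change over the root of its F value, and 95% intervals use 6 residual degrees of freedom. The strand setting of the counting is not given in the sources used here. Between libraries of a group the chi-square per gene was 7.87 to 59.88, above sampling noise, so none was treated as a repeat of another. Same-numbered libraries did not deviate together (correlations -0.34 to 0.05, beside -0.17 to 0.34 between different numbers). Replicate numbers were therefore not taken to pair libraries. CPM values, computed here, are counts scaled to the library total after TMM. Alternatives were DESeq2 1.42.0, limma 3.58.1 on log2(FPKM + 1) or log2(FPKM + 0.1), other scalings and filters, a replicate block, an adjusted p of 0.01, the 2 compared groups alone and each library left out. From each list, the rule named up to 2 called genes per line with the largest change and a mean FPKM of at least 1, and up to 3 genes most like each of 4 members, of which 1 is not reported here. The members, lists and rules were chosen with earlier results of these data known. Promoters came from RefSeq, GRCm38.p6, matched by gene ID.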

Additional observations from a re-analysis of the deposited data

Results flagged for a closer look

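The knockout lines differed from each other by a direct test (edgeR, adjusted p below 0.05, KO2 against KO1) for 6 of the 8 tested members. With the 21 other named pathway genes counted in, 24 genes differed in all. Over all tested genes 55.0% were called in this comparison. The other named genes were picked for large called changes against Ctrl in these same libraries, so their count is not independent support. Among the members, Lgr6 (log2 1.61), Tcf7l2 (0.61), Fzd7 (0.50) and Lrp6 (0.23) were higher in KO2 than in KO1. The Lrp6 difference was lost without TMM scaling (0.13, adjusted p = 0.164) and with limma (0.12, 0.197). Ctnnb1 (-0.26) and Sfrp1 (fitted log2 -13.36, a value that depends on the prior count since KO2 had 0 counts) were lower in KO2 than in KO1.

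Other pathway genes higher in KO2 than in KO1 were Apcdd1 (1.32), Tle2 (1.19), Notum (1.15), Tnfrsf19 (0.60), Dvl2 (0.57), Gsk3a (0.38), Wnt7b (0.34) and Kremen1 (0.32). Those lower in KO2 than in KO1 were Ror1 (-8.68), Tle4 (-8.58, likewise dependent on the prior count), Wnt10a (-4.01), Fzd3 (-1.30), Wnt10b (-1.20), Myc (-1.11), Gsk3b (-0.53), Fzd5 (-0.50), Tle1 (-0.33) and Dvl1 (-0.27). The difference of Wnt7b was lost without KO2 replicate 3 (adjusted p = 0.0942), without TMM scaling (0.0983), with limma (0.091 and 0.0903) and with a replicate block (0.0509). That of Dvl1 was lost without KO1 replicate 1 (0.0596), KO2 replicate 2 (0.0572) or KO2 replicate 3 (0.0587), and that of Kremen1 without TMM scaling (0.051) and with limma (0.0719 and 0.0701). The difference of Tle1 was lost without KO1 replicate 1 (adjusted p = 0.121), KO1 replicate 3 (0.0842) or any 1 KO2 library (0.0562 to 0.121), with no filter on low counts (0.057) and with a replicate block (0.0617). KO2 kept 126 ± 31.5 CPM of Malat1 and KO1 3.40 ± 0.669 CPM (SD, n = 3 each), beside 462 ± 54.9 CPM in Ctrl, and the part of that in these differences was not tested.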

How the results depend on the processing

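Over the alternatives run, 5 to 8 members were called in KO2 against Ctrl (7 in the reported fit; 6 to 8 with a library left out), 4 to 6 in KO1 against Ctrl (4; 4 to 6) and 4 to 7 in KO2 against KO1 (6; 6 to 7). The higher KO1 counts include Rnf43, which then passed the filter. In KO2 against KO1 Rnf43 was likewise called in all 8 settings where it was tested. Ctnnb1 was lost in that comparison without KO1 replicate 2, KO2 replicate 1 or KO2 replicate 2. A count of 6 there is therefore not always the same 6 members. Over all genes, 5445 to 7985 were called in KO2 against Ctrl, 2620 to 4503 in KO1 against Ctrl and 5556 to 7964 in KO2 against KO1. The 2620 came from an adjusted p of 0.01, where 4177 were called at 0.05. With a replicate block the members called were 7, 4 and 6, as without it. Some differences that were not called changed sign. These were Znrf3 in KO1 (-0.05 without KO1 replicate 1 to 0.17 without Ctrl replicate 2), Lrp6 in KO1 (-0.04 without Ctrl replicate 2, -0.01 without KO1 replicate 2, up to 0.06), Fzd5 in KO2 (0.01 without KO2 replicate 2, down to -0.08 with another library left out and to -0.10 without TMM or with limma on log2(FPKM + 0.1)) and Notum in KO2 (0.02 without Ctrl replicate 1, 0.05 without KO2 replicate 2, down to -0.19). Lrp5 in KO2 against KO1 was -0.03 without TMM, -0.02 with limma at either pseudocount and -0.05 without KO1 replicate 1 to 0.24 without KO1 replicate 2. The cause was not tested. Depth limits Rnf43 and Axin2, at 34 counts or fewer per group.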
